A study of Mus musculus with 22 samples.

Results

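Clone C11 is one of 4 GFP reporter clones of the mpkCCD cell line, an immortalised mouse line of kidney cortical collecting duct origin. The comparison described here sets the GFP-positive cells of this clone against its GFP-negative cells, with 2 libraries per fraction, which is 4 of the 22 RNA-seq libraries in the series. The libraries were taken by their labels, so no expression value chose them. Those labels are GFP fractions, so GFP itself defines the groups compared. The series as a whole concerns why the water channel aquaporin-2 is expressed unevenly between cells, with GFP as the readout. It also holds the GFP-negative and GFP-positive fractions of clones C1, C43 and C50 (2 libraries each) and unsorted WT cells given vehicle or dDAVP (3 libraries each).

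All clone libraries came from cells given dDAVP (desmopressin), so both C11 fractions had the drug and no C11 library was left untreated. The labels list several dDAVP doses and durations without assigning them to libraries, and they do not name the promoter that drives GFP. C11 is a single clone, and a difference between it and another clone has no replication at the level of clones. Whether the 2 libraries of a fraction came from separate cultures is not stated, so p-values measure the spread between libraries, which may be technical.

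Vasopressin acts on principal cells of the collecting duct through the V2 receptor, which raises cAMP and activates protein kinase A. The kinase moves aquaporin-2 to the apical membrane and raises transcription of Aqp2, and water then leaves the tubule along the osmotic gradient. dDAVP is an agonist of this receptor. Principal cells also take up sodium through the epithelial sodium channel ENaC and the Na,K-ATPase.

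Expression is given as the TPM (length-scaled transcript abundance) of the authors' table, which keep no sequencing depth, so the depth of each library is unknown and a value of 0 is only a gene listed at 0. The C11 libraries had 12559 to 13501 genes at a TPM of 1 or more, mitochondrial transcripts at 1.07% to 1.43% of TPM, and a correlation within each fraction of 0.976. Outside C11, C50 GFP-negative replicate 1 stood apart, with ribosomal-protein transcripts at 7.87% of TPM and a correlation of 0.944 with its partner. Of the 9 principal cell markers, 8 reached a TPM of 1 in at least one C11 library. Aqp3 (0.15 to 1.10) and Scnn1b (0.26 to 0.82) were close to or below a TPM of 1 in all 4. Defining markers of fibroblasts, endothelium, podocytes, thick limb and intercalated cells stayed below a TPM of 1 in every C11 library. The immune marker Cd68 was at 5.14 to 5.99 with Ptprc below 1, and the proximal tubule marker Lrp2 at 9.89 to 15.9 with the other 4 of its list below 1. Urothelial markers summed to 559.6 and 558.5 TPM in the GFP-negative libraries and to 990.2 and 998 in the GFP-positive ones, nearly all of it Upk1a.

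The reporter transcript separated the fractions as labelled. Because the fractions are defined by GFP, its step was fixed in advance and only checks the labels. GFP stood at a TPM of 9.84 and 10.6 in the C11 GFP-negative libraries and at 1254 and 1400.05 in the GFP-positive ones. That is a 129.6-fold ratio of means, or a log2 difference of 6.88 (SE 0.22, limma adjusted p = 2.37e-08). Aqp2 was at 263 and 236 in the GFP-negative libraries and at 2896 and 3108 in the GFP-positive ones, a mean of 249 ± 19.2 against 3002 ± 149.9 (SD, n = 2 each). The fractions did not overlap for either transcript. The Aqp2 ratio of means was 12.04, and the log2 difference 3.59 (SE 0.09, limma adjusted p = 2.01e-09). With 4 libraries a two-sided exact permutation test has 6 arrangements and gave 0.333 for both transcripts, the smallest p it allows. Unsorted WT cells had Aqp2 at 64.1 to 74.9 with vehicle and at 2759 to 3025 with dDAVP, so the C11 GFP-negative cells lay above the vehicle-treated WT cells and the GFP-positive cells near the dDAVP-treated ones. WT and clone values come from one deposited table, but the 2 kinds of library were not compared by a test.

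**Figure D1:**
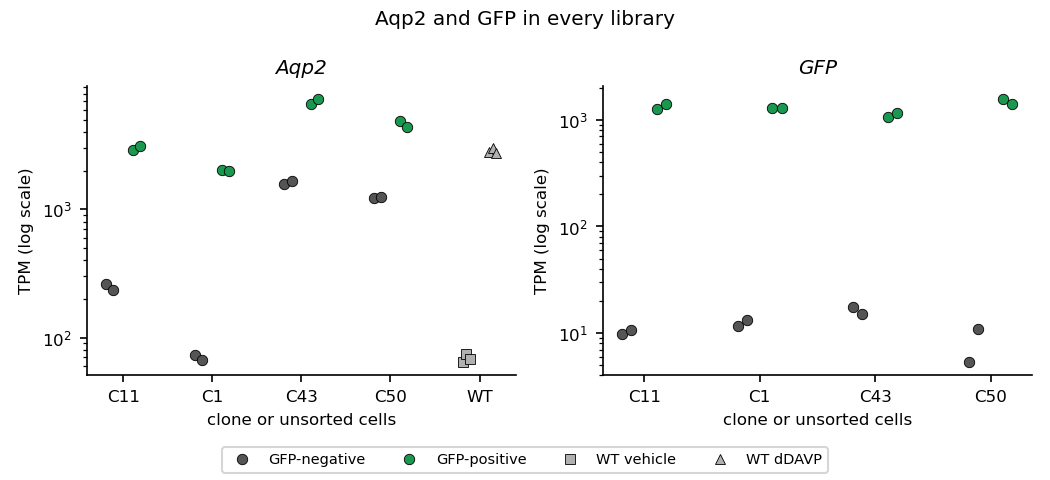
TPM of Aqp2 (left) and GFP (right) on log axes, one point per library, for the GFP-negative and GFP-positive fractions of the 4 clones and, for Aqp2, unsorted WT cells. In C11 both transcripts separate the fractions without overlap, and the Aqp2 level of the C11 GFP-negative cells (263 and 236) lies between that of C1 and those of C43 and C50.

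The Aqp2 step between fractions was a property in which the clones differed. GFP-negative cells of C1 had Aqp2 at 72.6 and 66.5 TPM. Those of C50 had 1232 and 1254, and those of C43 had 1568 and 1680. In the GFP-positive cells the order was C1 (2027 and 2008), C11, C50 (4894 and 4409) and C43 (6649 and 7254). C11 was thus second lowest in both fractions, and no neighbours in either order overlapped. On the log2 scale, C1 had a step of 4.84 and C11 of 3.59, followed by 2.10 for C43 and 1.90 for C50. Tested singly, the C11 step was smaller than that of C1 by 1.25 (SE 0.12, limma adjusted p = 0.00103). It was larger than that of C43 by 1.49 (adjusted p = 0.000623) and than that of C50 by 1.68 (adjusted p = 0.000141). Against the mean of the other 3 clones, among which C11 lies in the middle, the difference was 0.64 (SE 0.10, adjusted p = 0.0517) and did not pass. The differences from C1 and C43 also missed the threshold when libraries were rescaled by median ratios (adjusted p = 0.0529 and 0.0793). The GFP step was 6.59, 6.01 and 7.43 in C1, C43 and C50, so that C11 (6.88) lay in the middle here too. Its difference was 0.21 (SE 0.26, limma adjusted p = 0.932) from their mean, 0.29 from C1, 0.88 from C43 and -0.55 from C50 (SE 0.32 each), with adjusted p of 1, 1 and 0.366 for the single clones. None of these passed the test, which does not show that the GFP steps were alike.

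Across the 13113 genes tested, 1041 differed between the C11 fractions (7.94% of genes, limma with the spread shared over the 8 clone-and-fraction groups, adjusted p under 0.05). Of these, 293 (2.23%) were higher and 748 (5.70%) lower in the GFP-positive cells. Counting only changes of 1 or more on the log2 scale left 370 genes (65 rises and 305 falls), and the median over all tested genes was -0.12. The excess of lower calls rests on the scaling: with median-ratio scaling, which set that median to 0.01, there were 485 higher and 510 lower calls, with quantile normalization 532 and 652, and with a correction for gene length and GC content 771 and 780. Because the spread was shared, libraries of other clones moved the count too. Leaving out either of the C50 GFP-negative libraries gave 2331 calls, and leaving out one C11 library gave 371 or 323 (GFP-negative replicate 1 or 2) and 327 or 318 (GFP-positive replicate 1 or 2).

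Besides Aqp2 and GFP, which are described above and left out of the rises named here, and the microRNA gene Mir3101, the largest named rise in GFP-positive C11 cells was that of Fxyd4, which encodes the Na,K-ATPase regulator CHIF of the collecting duct. Its TPM was 133 and 122 in the GFP-negative and 754 and 714 in the GFP-positive libraries, a log2 difference of 2.52 (SE 0.25, adjusted p = 0.000158). Gsdmc2, a gasdermin of the family of pore-forming proteins, went from 15.7 and 13.7 to 51.8 and 53.8 (1.78), and its neighbour in the family Gsdmc3 from 4.39 and 4.40 to 15.97 and 18.4 (1.75). Reads of these closely related gasdermins may be shared between them, so the split between family members is uncertain. Gstt1, a glutathione transferase, rose by 1.71, and Adh1, an alcohol dehydrogenase, by 1.69, from 52.7 and 56.1 to 183 and 172. Smaller rises were those of the transcription factor Cebpd (1.57), Tldc2 (1.53), the protease inhibitor Spink8 (1.44), the small GTPase Rasd1 (1.41), Sprr2g (1.40) and the transcriptional coregulator Cited1 (1.38). All of these pass the threshold, with adjusted p from 6.59e-05 (Gstt1) to 0.0188 (Tldc2). The microRNA gene Mir3101 was listed at 0 in both GFP-negative libraries and at 26.8 and 26.0 in the GFP-positive ones (adjusted p = 0.0197). Its annotated span is only 88 bases, and the call was lost when any one C11 library was left out, as was that of Tldc2.

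The largest named fall in GFP-positive cells was that of Timp3, an inhibitor of matrix metalloproteinases. It had a TPM of 26.9 and 26.8 in the GFP-negative libraries and of 0.96 and 1.12 in the GFP-positive ones, a log2 difference of -3.77 (SE 0.45, adjusted p = 0.000444). Slc4a11, a membrane transporter, was at 86.6 and 93.3 against 6.21 and 6.45 (-3.63), and the adhesion molecule Mcam at 19.4 and 20.4 against 0.58 and 0.82 (-3.62). In these 3 genes the GFP-positive libraries lay far below both GFP-negative ones. The matrix and cytoskeletal genes Fn1 (fibronectin, -3.39), Fbln2 (fibulin, -3.12) and Dbn1 (drebrin, -3.57) fell as well, as did the Wnt ligand Wnt10a (-3.30), the cyclin gene Ccnd1 (-3.19), Lhfp (-3.28), the peptidase gene Mme (-3.09), Basp1 (-3.04) and the transcription factor Scx (-2.94). Scx was among the more abundant of them, at 183 and 164 against 21.4 and 21.8. Adjusted p ran from 1.00e-07 (Basp1) to 0.00065 (Fbln2). Fractions that do not overlap were a condition for naming a gene among these rises and falls, so their separation is no result.

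**Figure D2:**
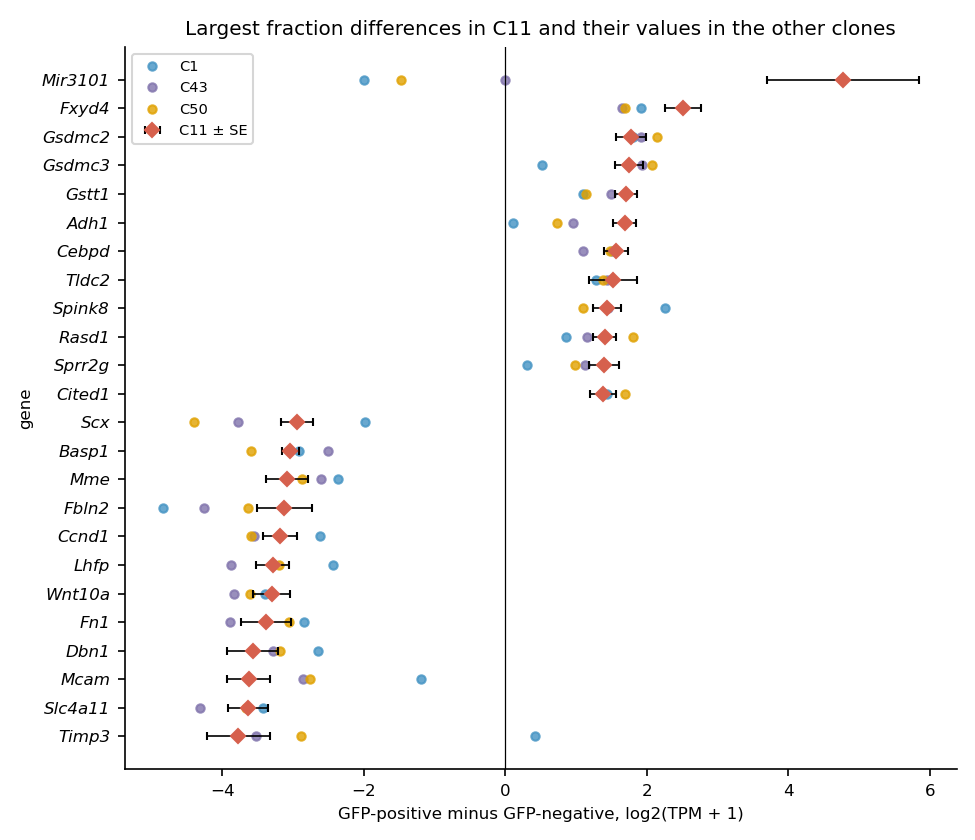
Log2(TPM + 1) difference between GFP-positive and GFP-negative cells for the 12 largest rises (Aqp2 and GFP left out) and 12 largest falls named in C11 (diamonds, bars are the SE), with the same difference in C1, C43 and C50 (circles). Most circles lie on the side of the C11 value, while Timp3 in C1 (0.42) and Mir3101 in C1 (-2.00) and C50 (-1.47) lie on the other side of 0.

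The same genes were then read in libraries that had no part in choosing them. In unsorted WT cells, where dDAVP against vehicle called 1198 of 13494 genes (8.88%, of which 2.37% higher and 6.51% lower), 10 of the 11 C11 rises that could be tested were also higher with dDAVP. Their log2 changes there ran from 0.73 to 4.31. The strongest was Cited1 (4.31), followed by Spink8 (3.03) and Cebpd (2.79). The exception, Tldc2, changed by 0.77 (limma adjusted p = 0.0539). Of the 12 falls, 0 were called in WT cells, with log2 changes between -0.57 and -0.08 and 4 at an unadjusted p under 0.05 (limma). Over all C11 calls, 141 of 287 higher genes tested in WT (49.1%) were called higher with dDAVP, and 172 of 744 lower genes (23.1%) called lower. Only 5 genes were higher in C11 and lower in WT, and 3 were the reverse. The shared higher genes are 44.1% of all WT genes called higher, and the shared lower genes 19.6% of those called lower.

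Gene lists by role place these changes in the physiology of the cell. Of the 15 principal cell genes tested other than Aqp2, 5 rose and 0 fell in C11 GFP-positive cells, with a median of 0.50 against -0.12 over all genes, of which 2.23% were called higher and 5.70% lower. Avpr2, the V2 receptor that dDAVP binds, went from 179 and 173 to 336 and 346 (0.95, adjusted p = 6.59e-05). The others were Fxyd4, the ENaC subunit gene Scnn1g (0.78) and the transcription factor genes Gata3 (0.74) and Elf3 (0.67). The call for Scnn1g was lost in 13 of 27 alternatives, and leaving out one C11 library left 2 or 3 of the 5 rises, while the length and GC correction gave 8. The remaining ENaC subunit with substantial signal, Scnn1a, was at 172 and 220.1 against 244 and 242 (adjusted p = 0.697). Among 21 sodium transport genes 6 rose and 1 fell. Sgk1, the kinase that keeps ENaC at the membrane, went from 474 and 505 to 1016 and 1064 (1.09, adjusted p = 0.000972). Fxyd2, another Na,K-ATPase regulator, rose by 1.24 while Fxyd5 fell by 1.71 from a low level (4.08 and 3.35). Tsc22d3 (0.55), a glucocorticoid-responsive gene, and the Na,K-ATPase subunit gene Atp1b1 (0.48, lost in 17 of 27 alternatives) also rose. Leaving out one C11 library left 2 to 4 of these rises, and median-ratio scaling gave 9. Of 5 aquaporin genes tested only Aqp2 was called. Of 27 genes of V2 receptor and cAMP signalling, 2 rose (Avpr2 and Cited1) and 1 fell (Pkig, a protein kinase A inhibitor, -0.48, lost in 11 of 27 alternatives). With median-ratio scaling or quantile normalization 5 rose and 0 fell, and with the length and GC correction 4 and 0. Adenylate cyclase 6 (Adcy6, 22.3 and 23.4 against 32.2 and 26.3) and the cAMP-responsive repressor Crem (16.8 and 13.1 against 22.3 and 23.7) were not called.

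Cell cycle genes were called lower in GFP-positive C11 cells and not higher. Of 28 genes of G2 and M phase, 20 fell and 0 rose, with a median of -1.07, where 5.70% of all genes were called lower. Of 31 S phase genes 11 fell and 0 rose, with a median of -0.46. Cdk1, the mitotic kinase, was at 384 and 372 in GFP-negative against 187 and 185 in GFP-positive cells (-1.02, adjusted p = 0.000256). Birc5, of the chromosomal passenger complex, was at 133 and 122 against 49.4 and 45.3 (-1.41, adjusted p = 3.69e-05). Aurkb (-1.33), Ccnb2 (-1.37), the proliferation marker Mki67 (-0.90) and the replication factor Cdc45 (-1.07) were lower too. In bulk RNA, fewer cells in a phase and less RNA per cell cannot be told apart. Without C50 GFP-negative replicate 1, all 28 G2 and M phase genes and 21 of the S phase genes were called lower. Leaving out one C11 library left 7 to 16 and 2, respectively. Median-ratio scaling gave 21 and 10.

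Most members of the matrix lists were not called. Of 14 mesenchymal genes 6 fell (among them Fn1, Fbln2, Spp1, Ccn2 and Cdh2) and 0 rose, with a median of -0.84. The basement membrane list had 3 of 26 lower, against 5.70% of all genes, the collagen IV genes Col4a1 (-2.26), Col4a2 (-1.94) and Col4a4, the last from 13.0 and 10.7 to 5.61 and 5.15. Of 16 Wnt pathway genes 4 fell, among them Wnt10a and Wnt7a (-2.13). Without any one C11 library, 5 mesenchymal, 2 basement membrane and 3 Wnt genes fell, and without C50 GFP-negative replicate 1 there were 8, 9 and 5.

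The inflammatory and stress lists are to be read beside the 5.70% of all genes called lower and the 2.23% called higher. Of 23 NF-kB and chemokine genes 5 fell and 0 rose: Relb (-1.58) and the iron-binding protein gene Lcn2, from 4081 and 3949 to 2070 and 1807 (-1.05), besides Tnfaip3, Cxcl10 and Cxcl16, whose calls were lost in 11, 15 and 17 of 27 alternatives. Without any one C11 library 2 NF-kB genes fell, and median-ratio scaling gave 3 falls and 1 rise. Of 23 genes of the unfolded protein and integrated stress responses 4 fell and 1 rose, with a median of -0.06 that lay above that of all genes, and the rise was lost without any one C11 library. The 4 were Trib3, from 159 and 142 to 20.1 and 19.1 (-2.88), and the amino acid synthesis genes Asns, Phgdh and Shmt2. Of 19 p53 and Gadd45 genes 3 fell, including Gadd45a (-2.30), and 1 rose, Gadd45g (0.56), a call lost in 13 of 27 alternatives. Interferon-related genes had 4 rises in 26, Ifit1 (0.67), Ifit3 (0.50), Ifi27 (0.61) and Psmb9 (1.21), and 1 fall, H2-K1. Median-ratio scaling gave 6 rises and 0 falls and the length and GC correction 9 and 1, while leaving out one C11 library left 0 or 1 rise and 0 falls, and Ifi27 and H2-K1 lost their calls in 14 and 10 of 27 alternatives. Epithelial junction and keratin genes had 4 rises, among them Muc1 (0.80) and Krt19 (0.68), and 2 falls in 27, of which 1 or 2 rises and 1 fall were left without one C11 library. Those counts were 6 and 0 with median-ratio scaling, 7 and 1 with the length and GC correction and 3 and 3 with quantile normalization. Immediate early genes had 0 rises and 1 fall in 23: Atf3 (-0.96), while Fos was at 3107 and 3400 against 3813 and 3994 (adjusted p = 0.385). That list had 3 rises with median-ratio scaling, 4 rises and 2 falls with the length and GC correction, and 5 rises and 3 falls without C50 GFP-negative replicate 1. Glycolysis genes had 1 rise, Ndrg1 (0.80), and 2 falls in 24, of which that of Pgk1 was lost in 21 of 27 alternatives. Without C50 GFP-negative replicate 1 the falls numbered 6 for glycolysis, 6 for p53 and Gadd45 and 7 for the stress responses. Cholesterol synthesis had 0 of 25 called by limma and 1 at an unadjusted p under 0.05. The sign of the list median changed with median-ratio scaling for cholesterol synthesis, glycolysis, the stress responses and cAMP signalling, all of which lay within 0.15 of 0. Of 6 intercalated cell genes only Car2 rose (0.71), and the urothelial marker Upk1a rose from 548 and 547 to 968 and 977 (0.83).

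**Figure D3:**
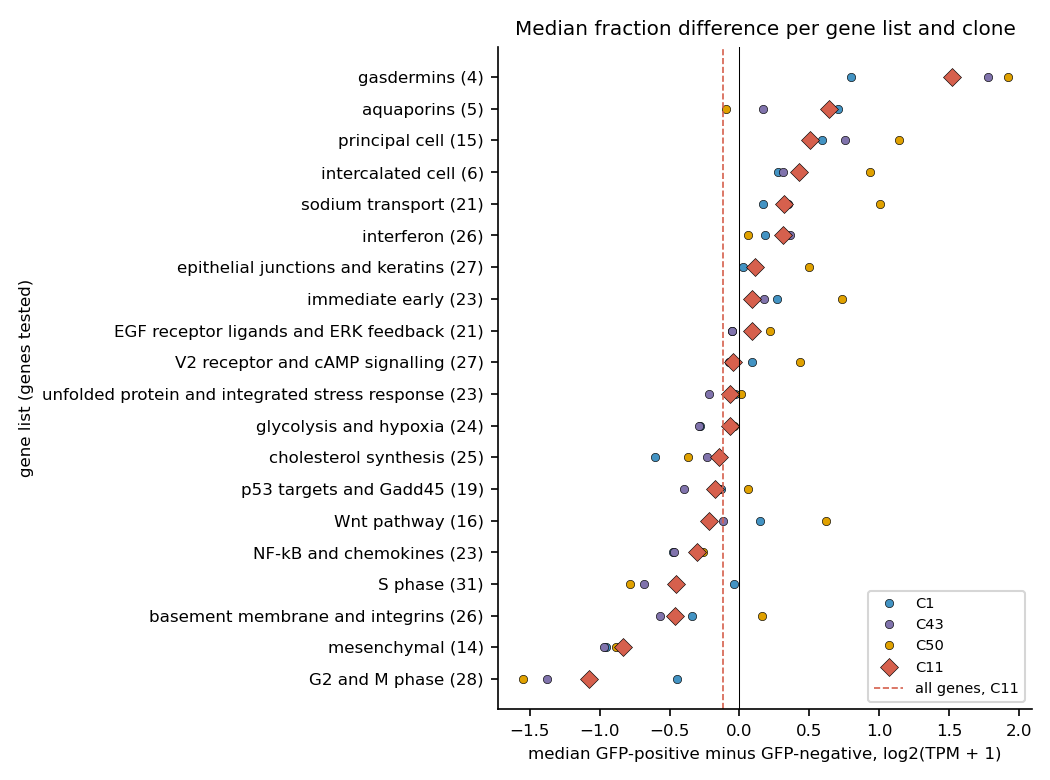
Median log2(TPM + 1) difference between GFP-positive and GFP-negative cells for each gene list in C11 (diamonds) and in the other clones (circles), with the number of genes tested in parentheses; the dashed line is the C11 median of all tested genes (-0.12). In C11 the G2 and M phase list has the lowest median (-1.07) and the gasdermin list of 4 genes the highest (1.52), and the 2 cell cycle medians of C11 lie between those of C1 and of C43 and C50.

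Most of the C11 difference was found in other clones too, whose libraries are separate from those of C11. The calls are not independent, because the fit gives all clones the same spread for a gene. A gene with a low shared spread is called more easily in every clone. The share of all tested genes called in at least 1 or in all 3 other clones was not counted. Of the 1041 genes called in C11, 963 (92.5%) had the same sign in all 3 other clones, against 43.3% of all tested genes, and 987 (94.8%) were called in the same direction in at least 1 of them. All 3 other clones shared 431 of the calls, and 54 were called in none. C1, with 947 calls (7.22% of genes, 2.31% higher and 4.91% lower), shared 477, which is 45.8% of the C11 calls and 50.4% of its own. C43, with 2134 (16.3%, 562 higher and 1572 lower), shared 909 (87.3% and 42.6%), and C50, with 3486 (26.6%, 12.8% higher and 13.8% lower), shared 847 (81.4% and 24.3%). A single gene called in C11, Mab21l4, named here after its values were seen, was called in the opposite direction elsewhere. Its C11 libraries rose from 16.7 and 15.0 to 25.7 and 25.7 (0.67), with C43 at 0.55, C1 at -0.80 and C50 at -0.50. Among the named genes, 8 of 12 rises and 11 of 12 falls were called the same way in all 3 other clones.

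What was particular to C11 was tested as the difference between its fraction step and the mean step of C1, C43 and C50. That test called 12 genes (0.0915% of 13113), 10 with a positive and 2 with a negative difference, and 662 genes had an unadjusted p under 0.05. Of the 12, Gm24494 and Gm48789 passed the filter on mean TPM only through the C11 GFP-positive libraries in which they are high. They therefore had to differ, and their calls support nothing about C11. Mir130c likewise passed only through the GFP-positive libraries of C1 and C43 in which it is high. Its call supports nothing about C11 either. In none of the 12 did the C11 step lie in the middle of those of the other clones. Tested singly, 10 of the 12 were also called against C1 and 9 against C50, but only 3 against C43. In 8 of the 10 positive ones the mean step of the other clones was a fall that C11 showed less or not at all. The count moved with the libraries used. It was 5 to 7 without C1 GFP-negative replicate 1 (7), C1 GFP-positive replicate 1 (7) or 2 (6), C11 GFP-negative replicate 2 (5), C11 GFP-positive replicate 1 (6) or 2 (6), C43 GFP-negative replicate 1 (5) or C50 GFP-positive replicate 2 (6). It was 42 without C43 GFP-positive replicate 2, and 44 or 385 without C50 GFP-negative replicate 1 or 2.

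Spp1, which encodes the secreted glycoprotein osteopontin, kept its difference in 27 of 29 alternatives. In C11 it fell from 16.5 and 16.4 to 1.76 and 1.54 TPM. In C43 the GFP-negative libraries had a similar level (16.1 and 16.9) but the GFP-positive ones 0.69 and 0.53. In C1 it fell from 152 and 137 to 3.37 and 2.81, and in C50 from 60.8 and 51.1 to 0.69 and 0.34. All 4 clones thus lost Spp1 with GFP, C11 by the smallest step: -2.72 against a mean of -4.61, a difference of 1.89 (SE 0.19, limma adjusted p = 0.00383). Singly, the difference passed against C1 (2.43, adjusted p = 0.00103) and C50 (2.52, adjusted p = 0.000983) and not against C43 (0.72). It kept its call without each C11 library in turn and lost it without clone C1 and with the replicate number as a block (adjusted p from 0.00187 to 0.127 over 29 alternatives).

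Without clone C1 none of the other named genes kept its call against the mean of the remaining clones either: Areg, Morrbid, Hs3st1, Prxl2a, Anxa3, Anxa2, H2-K1, Depp1 and Mir130c all lost it. Each of these genes also lost its call when any one C11 library was left out.

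Areg, which encodes the EGF receptor ligand amphiregulin, was called lower in each of the 3 other clones and was not called in C11. Its C11 values were 12.8 and 12.7 in GFP-negative and 15.3 and 13.9 in GFP-positive cells (0.18, adjusted p = 0.506). In C1 it went from 41.0 and 39.2 to 13.1 and 13.9 (-1.51), in C43 from 19.3 and 19.6 to 8.94 and 9.83 (-0.98) and in C50 from 18.4 and 15.5 to 9.74 and 11.0 (-0.65). The GFP-negative cells of C11 held the lowest Areg of the 4 clones, and the GFP-positive cells differed less between clones. The difference from their mean was 1.23 (SE 0.15, adjusted p = 0.013), and singly it passed against C1 (adjusted p = 0.00254) and not against C43 (0.123) or C50 (adjusted p = 0.121). Of 21 genes of the EGF receptor ligand and ERK feedback list, Areg was the only one called in this test. Within C11, betacellulin (Btc) rose by 0.62 and the ERK targets Etv4 (-2.17), Dusp4 (-1.34) and Errfi1 (-0.53) fell. The calls of Dusp4, Errfi1 and Btc were lost in 18, 8 and 6 of 27 alternatives.

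Morrbid, a long non-coding RNA known to restrain the proapoptotic gene Bcl2l11, followed the same form at a lower level. C11 had 3.49 and 3.65 against 3.75 and 3.61, a step of 0.03, while C1 fell from 10.3 and 10.3 to 1.06 and 1.04, C43 from 9.80 and 7.15 to 4.13 and 3.94, and C50 from 10.7 and 9.08 to 2.44 and 2.01 (difference 1.74, SE 0.21, adjusted p = 0.013). Again it was the GFP-negative level of C11 that lay below the others. Hs3st1, a heparan sulfate sulfotransferase, stood at 66.6 and 63.7 against 60.1 and 60.7 in C11. In the GFP-negative cells of the other clones it was at 78.9 to 128, and in their GFP-positive cells at 41.4 to 64.5 (difference 0.82, adjusted p = 0.0275). Prxl2a, a redox protein of the peroxiredoxin-like family, was at 75.1 and 82.5 against 70.6 and 68.0 in C11, and at 126 to 198 in the other GFP-negative libraries against 81.1 to 95.3 in the GFP-positive ones (0.78, adjusted p = 0.0214). For both genes the C11 fractions lay close together where the other clones fell.

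The annexins, which bind membranes in the presence of calcium, gave 2 more genes. Anxa3 fell in every clone, in C11 from 326 and 321 to 86.8 and 93.7 (-1.83), less than the mean of the others (-2.60, difference 0.77, adjusted p = 0.0473). Singly, it passed against C50 (limma adjusted p = 0.005) and not against C1 (limma adjusted p = 0.193) or C43 (difference 0.45). Anxa2 was at 639 and 616 against 738 and 716 in C11 (0.21, adjusted p = 0.108), with steps of -0.59, 0.00 and -0.39 in C1, C43 and C50 (difference 0.54, adjusted p = 0.0473). Its single difference passed against C1 (limma adjusted p = 0.007) and C50 (limma adjusted p = 0.0376) and not against C43 (difference 0.21). H2-K1, a class I antigen-presenting gene with near-identical relatives that can share its reads, fell by 0.34 in C11, from 468 and 488 to 362 and 392, and by a mean of 0.93 in the other clones (adjusted p = 0.0473). These 3 calls were the least firm and were lost in 21 (Anxa3), 24 (Anxa2) and 25 (H2-K1) of 29 alternatives. Areg lost its call in 9, Morrbid in 7, and Hs3st1 and Prxl2a in 14 each.

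Depp1, a FOXO-responsive gene, had one of the 2 negative differences, the other being that of Mir130c, whose call supports nothing about C11. Depp1 is abundant, at 6745 and 6325 TPM in GFP-negative and 9167 and 8894 in GFP-positive C11 cells. That step of 0.47 was smaller than in C1 (1.08), C43 (0.98) and C50 (1.27), a difference of -0.64 (SE 0.09, adjusted p = 0.0197) that was lost in 15 of 29 alternatives. C11 GFP-negative cells held more Depp1 than any GFP-negative library of the other clones, whose highest was 5407. The urothelial gene Upk1a differed in that direction too and was not called (-0.43, adjusted p = 0.0908), though it passed in 3 of 29 alternatives, among them the length and GC correction.

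The remaining 3 calls fell on short features, of which Gm24494 and Gm48789 are outside the naming rule and were chosen after their values were seen. Gm24494, annotated as a small nucleolar RNA of 81 bases, was at 111 and 51.0 in the C11 GFP-positive libraries, listed at 0 in every other clone library, and at 24.9 in 1 WT library given dDAVP. Gm48789, a processed pseudogene of 129 bases, was at 13.3 and 13.1 in the same 2 libraries and listed at 0 in every other clone library. The microRNA gene Mir130c (82 bases) was at 0 in all 4 C11 libraries and all 4 of C50, and at 33.9 to 98.95 in the GFP-positive libraries of C1 and C43. It passed the filter on mean TPM only through those C1 and C43 libraries. C50 was at 0 as C11 was, so the call supports nothing particular to C11. TPM of such short features can rest on few fragments, and their number is not known here.

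**Figure D4:**
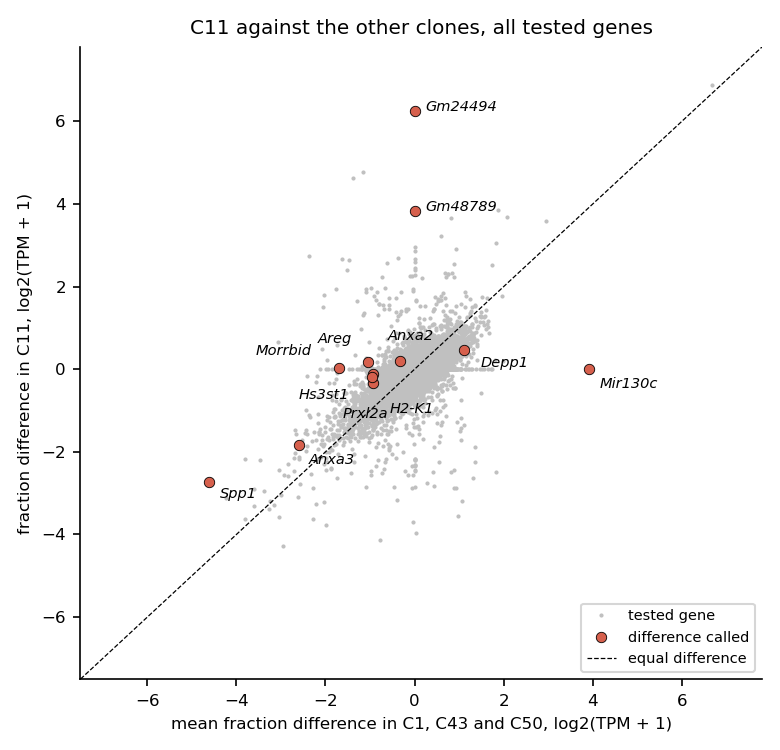
Log2(TPM + 1) difference between GFP-positive and GFP-negative cells in C11 (vertical) against the mean of the same difference in C1, C43 and C50 (horizontal) for every tested gene; red points are the 12 genes whose difference between the 2 axes was called. Most called genes lie left of 0 and above the dashed line of equality, that is, they fell in the other clones and less or not at all in C11.

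**Figure D5:**
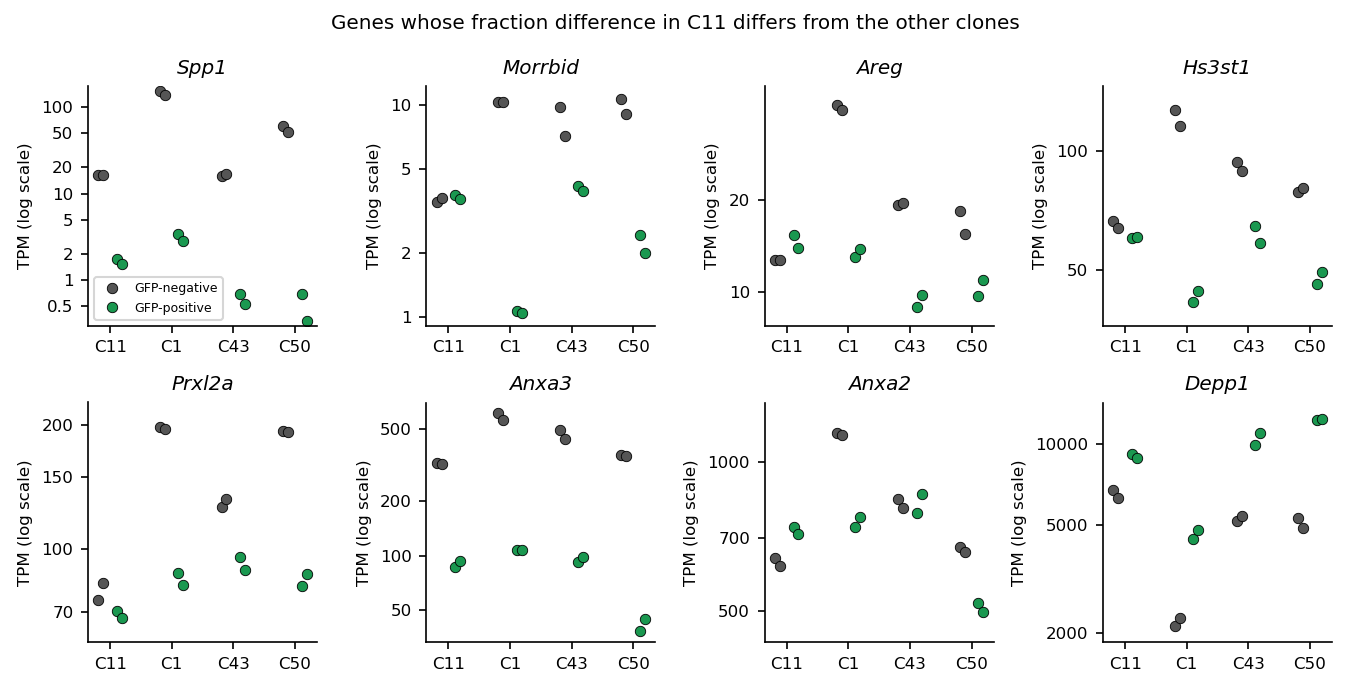
TPM per library on log axes for 8 genes whose fraction step in C11 differed from the mean of the other clones, in GFP-negative and GFP-positive cells of the 4 clones. For Areg, Morrbid, Hs3st1 and Prxl2a the C11 GFP-negative points lie below those of the other clones, and the C11 fractions nearly meet.

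Promoter windows are shown for Aqp2, on whose step the clones differed, and for Areg and Spp1, whose steps were smaller in C11. They are the 250 bases before the annotated start (RefSeq, GRCm38.p6, forward strand in each case), at chr15:99578806-99579055, chr5:91139349-91139598 and chr5:104434861-104435110. For Spp1 the first of 2 annotated starts is given. Capitals mark matches to any of 4 motifs on either strand: the cAMP response element TGACGTCA, the AP-1 site TGANTCA, the TATA box TATAAA and the GATA site AGATAA. No 2 matches overlap.
Aqp2: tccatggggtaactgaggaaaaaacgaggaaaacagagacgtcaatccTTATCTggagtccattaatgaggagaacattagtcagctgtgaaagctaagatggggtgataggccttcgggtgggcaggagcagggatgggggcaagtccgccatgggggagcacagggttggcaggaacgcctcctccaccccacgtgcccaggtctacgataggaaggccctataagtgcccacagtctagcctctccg
Areg: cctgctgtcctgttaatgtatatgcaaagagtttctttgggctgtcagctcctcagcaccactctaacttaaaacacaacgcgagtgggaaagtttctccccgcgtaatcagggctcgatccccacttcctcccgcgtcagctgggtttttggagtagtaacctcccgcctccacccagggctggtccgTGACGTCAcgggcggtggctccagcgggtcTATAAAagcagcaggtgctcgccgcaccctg
Spp1: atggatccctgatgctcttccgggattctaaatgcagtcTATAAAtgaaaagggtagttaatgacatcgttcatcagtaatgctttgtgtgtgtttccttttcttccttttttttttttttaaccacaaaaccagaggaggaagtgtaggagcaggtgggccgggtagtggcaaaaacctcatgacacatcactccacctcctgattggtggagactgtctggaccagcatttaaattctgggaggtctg
The Areg window holds a cAMP response element 61 to 54 bases before the start and a TATA box 31 to 26 bases before it. The Aqp2 window holds a GATA site on the opposite strand, 202 to 197 bases before the start, and the Spp1 window a TATA box 211 to 206 bases before it. Of 32851 windows of this length, 1.55% hold the cAMP response element, 6.75% the AP-1 site, 12.4% the TATA box and 9.99% the GATA site. A match describes letters only and does not show that a factor binds there.

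Set against single clones, C11 differed from C1 in 34 genes (0.259%), from C43 in 6 (0.0458%) and from C50 in 37 (0.282%). These 3 contrasts share the C11 libraries. The differences from C1 included Timp3, which C1 hardly expressed in either fraction (0.02 to 1.08 TPM) and C11 lost with GFP (adjusted p = 0.023), and Mcam, which C1 lowered by 1.19 and C11 by 3.62 (adjusted p = 0.0492). Adh1 rose in C11 and was at 18.9 to 25.6 in all C1 libraries (adjusted p = 0.0225). Of 25 cholesterol synthesis genes, 10 were called lower in C1 (4.91% of all genes there), 11 lower and 2 higher in C50 (13.8% and 12.8% of all genes), 3 lower in C43, about the share of all genes (1572 of 13113), and 0 in C11, or 4 lower without C50 GFP-negative replicate 1. The difference itself was called for Fdps, Msmo1 and Mvd against C1 (adjusted p = 0.0373, 0.0194 and 0.0432), for Fdps against C50 (adjusted p = 0.0244), and for 0 of 25 against the mean of the clones (7 at an unadjusted p under 0.05, limma). Fdps, which makes farnesyl diphosphate, was at 263 and 256 against 229 and 238 in C11, and in C1 fell from 293 and 266 to 140.2 and 147.

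The median step of the 28 G2 and M phase genes stood at -0.44 for C1, -1.07 for C11, -1.38 for C43 and -1.55 for C50, with 5, 20, 28 and 26 genes called lower. Over all genes 4.91%, 5.70%, 1572 of 13113 and 13.8% were called lower in the same order of clones. Against C50 the smaller fall of C11 was called for 4 of the 28: Birc5 (1.09, adjusted p = 0.0244), Ccnb2 (1.07, adjusted p = 0.0376), Cdk1 (0.94, adjusted p = 0.0376) and Ube2c (1.21, adjusted p = 0.0115). Against C1, C43 and the mean of the 3 clones limma called 0 of 28, with 12, 6 and 1 at an unadjusted p under 0.05. The C50 contrast depends on that clone's 2 GFP-negative libraries: without replicate 1, which stood apart, 102 genes in all were called against C50, and without replicate 2 there were 5327.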

How the data were processed

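RNA-seq libraries were made from total RNA with SMART-Seq HT cDNA and Nextera XT, per the labels' protocols. The authors deposited TPM per gene. STAR and RSEM are named in the submitters' processing notes, while their versions, the genome build and the annotation are not given in the sources used here. TPM keep no depth, so no counting interval could be given. Lines that share a symbol (980 lines, 79 symbols) were summed. The 13113 genes whose TPM averaged 1 or more across the 16 clone libraries were analysed as log2(TPM + 1), a scale that understates the change of low genes. Limma 3.58.1 (R 4.3.3) fitted 8 group means with trended moderation, 8 residual degrees of freedom and Benjamini-Hochberg adjustment over all tested genes; a call is an adjusted p under 0.05. WT libraries were fitted separately (13494 genes). The fit was tested on simulated data.

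Named were the 12 largest rises and 12 largest falls called in C11, apart from Aqp2 and GFP, whose TPM averaged 5 or more across its 4 libraries and whose fractions did not overlap, and up to 10 called genes in each direction of the difference from the other clones (with the 5 smallest p-values where fewer than 3 were called), passing over provisional symbols. From each of 20 gene lists up to 6 called members with the largest C11 change were named, besides members called in the difference and members whose role the text needs. Members and lists were chosen with earlier results of these data known. Alternatives covered the pseudocount, low-value filter, scaling, moderation, replicate block, a covariate, leaving out a clone and leaving out each library. A correction for gene length and GC content, for which 98.7% of genes had values, was chosen after seeing the data. Some genes that the naming rule selects are not reported here.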

Additional observations from a re-analysis of the deposited data

Results flagged for a closer look

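The results below are those in which the fraction step of C11 differed, by limma's test of the difference itself, from the mean of the other clones or from a single clone. All values are differences on the log2(TPM + 1) scale. The positive differences from the mean were 1.89 for Spp1, 1.74 for Morrbid, 1.23 for Areg, 0.82 for Hs3st1, 0.78 for Prxl2a, 0.77 for Anxa3, 0.59 for H2-K1 and 0.54 for Anxa2. The short features Gm24494 and Gm48789, listed at 0 in the other clones, gave 6.26 and 3.83, values that depend on the pseudocount; both passed the filter on mean TPM only through the C11 GFP-positive libraries, so these values support nothing about C11. The negative differences were -3.91 for Mir130c, listed at 0 in C11 and in C50, and -0.64 for Depp1. Mir130c passed the filter only through the GFP-positive libraries of C1 and C43. Its value depends on the pseudocount too and supports nothing about C11. For Aqp2 the C11 step differed by -1.25 from that of C1, by 1.49 from that of C43 and by 1.68 from that of C50.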

How the results depend on the processing

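The Aqp2 and GFP steps in C11 kept their direction and their call under all 27 alternatives (3.51 to 3.75 and 6.80 to 7.02). Among the named genes, no called C11 step and no called difference from the mean of the other clones changed sign where it was rerun; single-clone differences of genes other than Aqp2 were not rerun one by one. The GFP difference from the other clones, not called, went from 0.21 to -0.13 without clone C43. The count of genes changed in C11 (1041) was 370 with a log2 change of at least 1, 607 with no filter, and 318 to 2331 with one library left out. The difference from the other clones (12 genes) was 6 with a log2 change of at least 1, 5 with median-ratio scaling, 7 with quantile normalization, 3 without clone C1, 19 without clone C50, and 5 to 385 with one library left out. The Aqp2 difference from the other clones passed with the number of detected genes as covariate (0.61), without clone C1 (1.59), with the length and GC correction (0.60), and with some single libraries left out (0.56 to 0.72 over all 16), and was 0.21 without clone C43 and 0.12 without clone C50, where it was not called. Against C1 singly (34 genes) the count was 74 with the length and GC correction and 13 to 129 with one library left out. Against C43 (6) it was 12 with no filter, 3 with a pseudocount of 0.1, and 6 to 29 with one library left out. Against C50 (37) it was 24 with a log2 change of at least 1, 66 with the length and GC correction, 8 with untrended moderation, 24 with no filter, 81 with quantile normalization, and 11 to 5327 with one library left out. The C11 calls also called the same way in WT cells (313) were 180 with untrended moderation, 106 with no filter, and 103 to 554 with one library left out. Where these values moved, the cause was not tested.

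Same-numbered libraries shared a number only: their deviations correlated at 0.0544 (C1), 0.0151 (C11), 0.203 (C43) and 0.0825 (C50). Fitting the replicate number as a block gave a paired analysis in which 564 genes were called in C11, 1 in the difference from the other clones (Gm24494, so that every other gene named there lost its call), 6, 2 and 5 against C1, C43 and C50 singly, and 59 in both C11 and WT cells. Depth is unknown, so its limit on low genes could not be given.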
